A study of Homo sapiens with 15 samples.

Results

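The step from 0.5 to 5 nM ZJ-101 separates the lowest from the next dose of a dilution series in MDA-MB-231 cells. ZJ-101 is a simplified synthetic analog of superstolide A, a natural product of a marine sponge, and MDA-MB-231 is a human triple-negative breast cancer line with a mesenchymal form. Dishes of cells in 2D culture were held for 6 h with the DMSO vehicle or with 0.5, 5, 50 or 500 nM of the compound, and poly-A RNA was sequenced from 3 libraries per group. The 6 libraries described here are the 3 at 0.5 nM and the 3 at 5 nM, of 15 in all. They were taken by dose from the sample labels, and the doses to compare were chosen with earlier results of these data known. All 6 carry the compound and the vehicle, so the step shows what the higher dose adds to the lower, and every group is 1 cell line. The labels call the libraries of each dose biological replicates without saying how their dishes were grown apart. A p-value therefore sets a difference between groups against the spread between libraries within groups. All 15 libraries enter the estimate of that spread unless a fit leaves libraries out.

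Of 59608 genes in the table, 13561 had a mean of at least 10 normalised read counts over the 15 libraries and were tested. Between 13080286 and 15284762 reads lay on genes in the 6 libraries. All 14 mesenchymal markers were read in each of the 6 libraries, from SNAI2 (78.3 to 119 normalised read counts) to MSN, VIM, AXL and CD44 (10815 or more). Of 14 luminal markers KRT8, KRT19, KRT18 and ERBB2 were high too, at 1136 or more, and the estrogen receptor gene ESR1 was at 0 in 5 of the 6. Of 10 fibroblast markers COL1A1 (165 to 198) and PDGFRB (29.0 to 50.8) passed the filter on low values and POSTN and FAP were at 0 in all 6, while of 10 blood and endothelial markers PECAM1 (218 to 321), KDR (73.1 to 125) and CD14 (18.5 to 26.4) passed it and CD3E and HBA1 were at 0. None of these 4 lists had a called gene at the step. The library 0.5 nM replicate 2 stood apart. Against the mean of all libraries its values fell by 0.11 (log2) for each doubling of transcript length, where the other 14 libraries lay between -0.03 and 0.03, and its reads differed from those of the other replicates at 0.5 nM by 10.2 and 15.1 (chi-square over its degrees of freedom), where those differed from each other by 2.91. Calls and list medians are therefore given with this library and without it, which leaves 2 libraries at 0.5 nM.

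The endoplasmic reticulum (ER) is where secreted and surface proteins are folded by chaperones such as HSPA5 (BiP) and its J-domain partners, and where they receive their first N-linked sugar chains. Enzymes of the ER and Golgi then trim these chains, extend them and build others, among them O-mannose glycans and the chondroitin sulfate of proteoglycans. The unfolded protein response (UPR) is the pathway that adjusts the genes of ER chaperones to the folding load.

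Few genes differed between 0.5 and 5 nM, and most of them fell. In RNA from whole dishes a lower value can be less RNA per cell or fewer cells with the transcript, which cannot be told apart. With all libraries 16 genes passed an adjusted p of 0.05 (limma on log2(normalised read count + 1) with Benjamini-Hochberg adjustment), 0.118% of those tested. Of these 12 fell (0.0885%) and 4 rose (0.0295%). The falls were MANF, DNAJB11, DNAJC3, ERLEC1, MOGS, MGAT1, B4GAT1, TMTC3, CHPF, TMEM165, ARSK and FSTL3, and the rises were SLC3A2, TTC17, ZNF251 and LRIG2. Their p-values rest on the spread within all groups, DMSO and the higher doses included. With the 6 libraries of these doses fitted alone, ARSK, MANF and ZNF251 were the only genes of the 16 to pass. Without 0.5 nM replicate 2, 25 genes passed (0.184%), 20 lower (0.147%) and 5 higher (0.0369%) at 5 nM. All 12 falls and 3 of the 4 rises were among them, LRIG2 being the exception. At an unadjusted p under 0.05 stood 518 higher and 561 lower genes with all libraries, and 395 and 405 without the library.

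For each of the 16 genes the 3 libraries at 5 nM lay entirely on one side of the 3 at 0.5 nM, as they did for 10.6% of all genes tested. Without 0.5 nM replicate 2 the same held for all 25 genes, against 21.4% of all genes tested in this comparison of 3 with 2. The changes were small. Among the 12 falls the log2 difference ran from -0.23 to -0.78, and ZNF251, with few reads, was the only gene of the 16 whose log2 difference passed 1 in size. The median log2 difference over all genes was 0.004 with all libraries and -0.001 without the library.

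**Figure D1:**
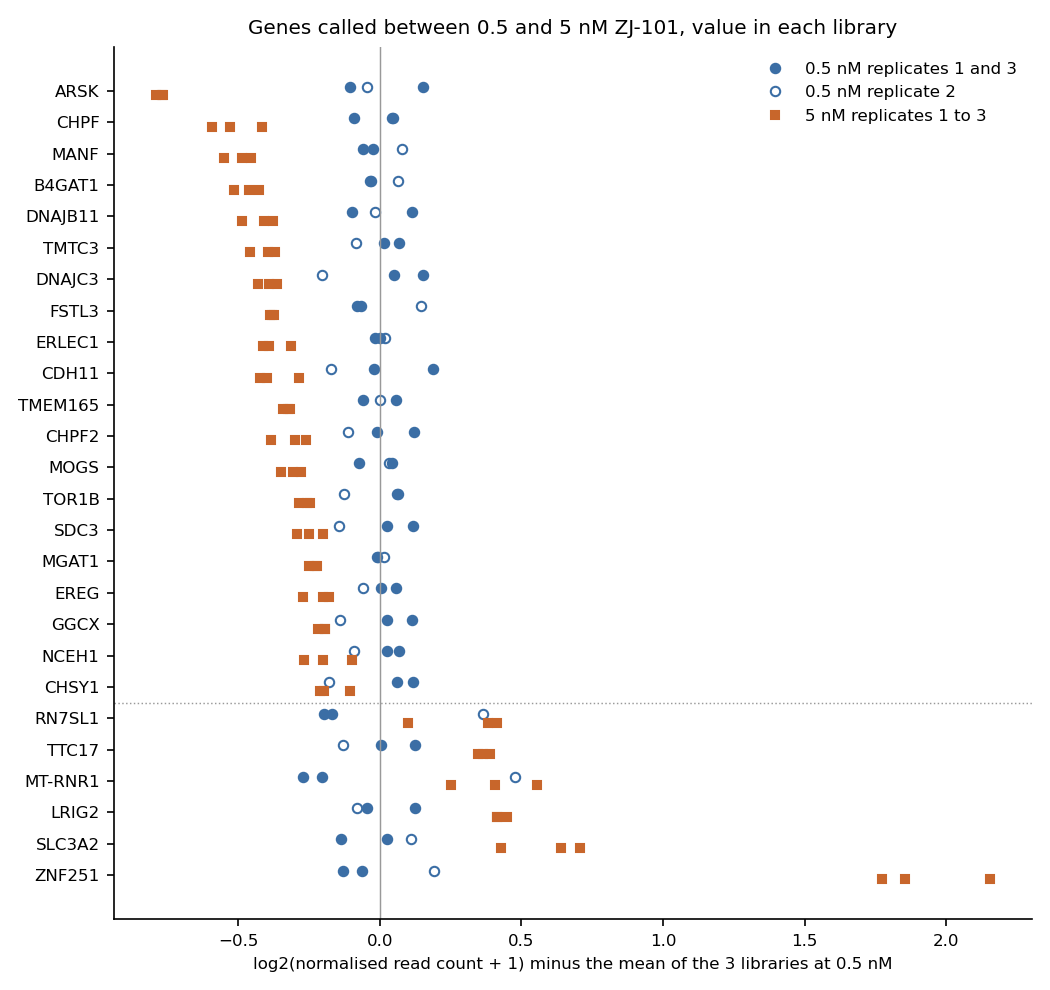
Each row is 1 of the 26 genes called with or without 0.5 nM replicate 2, and the horizontal axis gives log2(normalised read count + 1) in each library minus the mean of the 3 libraries at 0.5 nM. Circles are 0.5 nM (open for replicate 2), squares are 5 nM, and the dotted line divides the 20 falls from the 6 rises. For RN7SL1 and MT-RNR1 the open circle lies among the squares.

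The 3 genes of chaperones and cofactors of the ER lumen that fell were MANF, DNAJB11 and DNAJC3. MANF (chromosome 3, 51385291 to 51389397, hg38, plus strand) encodes a secreted ER protein that binds HSPA5. It had 1591, 1750 and 1630 normalised read counts in 0.5 nM replicates 1, 2 and 3, and 1208, 1183 and 1131 in those at 5 nM. All 5 nM libraries lay below all 0.5 nM libraries, and the mean fell by 29.1%. The log2 difference was -0.50 ± 0.05 (SE, adjusted p = 4.2e-04), and -0.46 without 0.5 nM replicate 2 (adjusted p = 2.9e-04).

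DNAJB11 (chromosome 3, 186567403 to 186585800), the J-domain partner ERdj3 of HSPA5, had 754.1, 796.9 and 871.8 normalised read counts at 0.5 nM and 606.5, 620.4 and 574.8 at 5 nM. The groups did not overlap, and the log2 difference was -0.42 ± 0.06 (adjusted p = 0.0024), or -0.43 without the library (adjusted p = 0.0025). In the annotation 14.2% of its exon bases also lie in other genes. DNAJC3 (chromosome 13, 95677139 to 95794988), the ER co-chaperone p58IPK, had 1118, 937.1 and 1199 normalised read counts at 0.5 nM and 800.7, 822.7 and 838.5 at 5 nM. Its lowest 0.5 nM value was that of replicate 2. The log2 difference was -0.39 ± 0.07 with all libraries (adjusted p = 0.015) and -0.50 ± 0.05 without it (adjusted p = 3.3e-05).

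The 250 bases before the start site of these 3 genes and of HSPA5, the chaperone they serve, are printed because ER stress response elements are sought in such promoters. They come from RefSeq on GRCh38.p14, the assembly also called hg38, and are written 5′ to 3′ on the strand of the gene. The start site is that of RefSeq, which for DNAJB11 and HSPA5 lies inside the longer gene span of the GENCODE annotation. Capitals mark CCACG on either strand and, in HSPA5, both ends of the ER stress response element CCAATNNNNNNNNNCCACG.
HSPA5, chr9:125241344-125241593, minus strand: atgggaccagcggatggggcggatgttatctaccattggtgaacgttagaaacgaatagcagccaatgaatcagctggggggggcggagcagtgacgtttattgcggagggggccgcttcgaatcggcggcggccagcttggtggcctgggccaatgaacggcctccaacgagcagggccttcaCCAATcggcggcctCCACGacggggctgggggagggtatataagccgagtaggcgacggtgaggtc
MANF, chr3:51385041-51385290, plus strand: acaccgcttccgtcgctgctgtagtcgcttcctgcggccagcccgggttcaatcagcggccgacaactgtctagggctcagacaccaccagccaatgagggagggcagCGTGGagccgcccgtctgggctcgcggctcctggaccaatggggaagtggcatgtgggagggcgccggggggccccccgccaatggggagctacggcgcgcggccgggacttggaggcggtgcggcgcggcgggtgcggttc
DNAJB11, chr3:186570470-186570719, plus strand: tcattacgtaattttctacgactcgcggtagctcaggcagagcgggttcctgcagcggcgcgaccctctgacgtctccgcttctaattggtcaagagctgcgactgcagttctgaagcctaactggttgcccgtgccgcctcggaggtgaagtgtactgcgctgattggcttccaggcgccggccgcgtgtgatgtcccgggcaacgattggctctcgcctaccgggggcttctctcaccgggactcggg
DNAJC3, chr13:95676889-95677138, plus strand: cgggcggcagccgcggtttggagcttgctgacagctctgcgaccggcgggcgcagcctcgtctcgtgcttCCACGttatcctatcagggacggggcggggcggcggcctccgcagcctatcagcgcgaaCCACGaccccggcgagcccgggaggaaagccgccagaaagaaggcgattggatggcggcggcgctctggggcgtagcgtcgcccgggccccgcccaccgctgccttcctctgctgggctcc

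Of the 26 genes called with or without the library, 19 had a promoter entry, 16 falls and 3 rises. The whole element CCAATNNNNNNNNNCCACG on either strand lay in 14 of the 10029 promoters of tested genes (0.140%), HSPA5 among them, and in 0 of these 19. The second form ATTGGNCCACG lay in 11 (0.110%) and the motif TGACGTGG in 75 (0.748%) of all promoters, and both in 0 of the 19. The element GAANNTTCNNGAA of heat-shock factors lay in 31 (0.309%) and the element TGATGNAAT of ATF4 in 43 (0.429%), again with 0 of the 19. The short CCACG, which is part of both ER stress elements and, read on the other strand, of TGACGTGG, lay in 9 of the 16 promoters of falling genes and in 44.5% of all. These matches describe letters in a window of 250 bases.

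The other measured ER chaperones and folding enzymes did not pass. Of 26 measured members 3 fell and 0 rose, with all libraries and without 0.5 nM replicate 2, where 0.0885% and 0.147% of all genes tested fell. Their median log2 difference was -0.12, with 21 of 26 lower at 5 nM, and -0.08 without the library, with 25 of 26 lower, DNAJB9 being the exception. Over all genes tested 6572 of 13561 were lower with all libraries and 6843 without. HSPA5 itself had 14072, 14500 and 13906 normalised read counts at 0.5 nM and 12377, 12560 and 12287 at 5 nM.

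The 2 groups of HSPA5 did not overlap, yet its log2 difference of -0.19 ± 0.04 missed the threshold (adjusted p = 0.16), also without the library (-0.17, adjusted p = 0.18). The protein disulfide isomerase gene PDIA6 (-0.18, adjusted p = 0.18) and the chaperone gene CALR (-0.18, adjusted p = 0.32) missed it as well, also without the library (-0.19, adjusted p = 0.082, and -0.17, adjusted p = 0.39). HSP90B1 (-0.06), P4HB (0.03), HYOU1 (0.02) and CANX (0.05) lay nearer 0. Without the library HSP90B1, P4HB and CANX stood at -0.02 and HYOU1 at -0.05, so that P4HB, HYOU1 and CANX changed sign. Among 13 measured sensors and transcription factors of the UPR, 0 passed in either direction, and XBP1 had -0.15 (adjusted p = 0.55), ATF4 -0.04 (adjusted p = 0.87) and DDIT3 -0.23 (adjusted p = 0.76). Without the library 0 passed again, with -0.12, 0.01 and -0.10 for these genes.

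A lectin of ER-associated degradation fell. ERLEC1 (chromosome 2, 53787009 to 53833038) binds the trimmed sugars of misfolded proteins in the ER lumen. It had 844.7, 866.0 and 856.2 normalised read counts at 0.5 nM and 642.0, 651.6 and 688.1 at 5 nM. The groups lay well apart, and the log2 difference was -0.37 ± 0.05 (adjusted p = 0.0020), or -0.36 without the library (adjusted p = 0.0031). It was the only 1 of 25 measured degradation genes to pass in either fit. Of all genes tested 0.0885% fell with all libraries and 0.147% without. The median of the 25 degradation genes was 0.01, or -0.01 without the library, and OS9, the related lectin, had 0.03 (adjusted p = 0.93). The membrane proteins HERPUD1 (-0.26, adjusted p = 0.29) and SEL1L (-0.03, adjusted p = 0.93) did not pass, nor without the library (-0.25 and -0.13).

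MOGS and MGAT1, both enzymes of N-glycans, fell. MOGS, the glucosidase that takes the first glucose off a new N-glycan in the ER, had 1258, 1352 and 1361 normalised read counts at 0.5 nM and 1038, 1069 and 1091 at 5 nM. MGAT1, the Golgi enzyme that starts hybrid and complex N-glycans, had 2410, 2441 and 2402 at 0.5 nM and 2063, 2076 and 2032 at 5 nM. In both genes the 5 nM libraries lay below all others of the pair of doses. The log2 difference of MOGS was -0.31 ± 0.06 (adjusted p = 0.021) and -0.30 without the library (adjusted p = 0.039), and that of MGAT1 was -0.23 ± 0.04 (adjusted p = 0.011) and -0.23 (adjusted p = 0.013). These were 2 falls among 44 measured genes of N-glycosylation in either fit, with 0 rises, where 0.0885% of all genes fell with all libraries and 0.147% without. The median of the 44 was 0.01 with 19 lower, and without the library -0.003 with 23 lower.

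B4GAT1 and TMTC3 act on O-mannose glycans. B4GAT1 (chromosome 11, 66345374 to 66347629), which extends the laminin-binding glycan of dystroglycan, had 816.9, 872.0 and 813.2 normalised read counts at 0.5 nM and 620.1, 582.9 and 604.7 at 5 nM. TMTC3 (chromosome 12, 88142296 to 88199887), a mannosyltransferase of cadherins, had 1390, 1300 and 1445 at 0.5 nM and 1048, 1002 and 1066 at 5 nM. The doses did not overlap in either gene. Their log2 differences were -0.47 ± 0.07 (adjusted p = 0.0033) and -0.41 ± 0.06 (adjusted p = 0.0041), and without the library -0.44 (adjusted p = 0.0070) and -0.45 (adjusted p = 9.4e-04). In a list of O-mannosylation enzymes drawn up after these values were seen, the other 13 of 15 measured genes did not pass. Of all genes tested 0.0885% fell with all libraries and 0.147% without. Since the list was chosen with these calls known, no conclusion is drawn from their share.

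CHPF (chromosome 2, 219538954 to 219543809), the chondroitin polymerizing factor, had 820.0, 901.1 and 903.1 normalised read counts at 0.5 nM and 605.5, 579.4 and 654.1 at 5 nM. The mean fell by 29.9%, with a log2 difference of -0.51 ± 0.08 (adjusted p = 0.0059), and -0.49 without the library (adjusted p = 0.012). Its relatives CHPF2 and CHSY1, named here after their values were seen, passed without the library alone. CHPF2 had -0.31 with all libraries (adjusted p = 0.15) and -0.37 without the library (adjusted p = 0.025). CHSY1 had -0.17 (adjusted p = 0.55) and -0.26 (adjusted p = 0.0496). A list of chondroitin sulfate and linker genes, also drawn up after the values were seen, had 19 measured members. Of these 14 were lower at 5 nM in both fits. Among all 13561 genes tested, 6572 were lower with all libraries and 6843 without. The 14 include CHPF, CHPF2 and CHSY1, and no other member of the list passed. Past the threshold 0.0885% of all genes tested fell with all libraries and 0.147% without. Of the exon bases of CHPF2, 22.1% also lie in other genes.

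A gene of the Golgi membrane and a gene of the lysosome fell as well, TMEM165 and ARSK. TMEM165 (chromosome 4, 55395957 to 55453397) encodes a Golgi membrane protein needed for manganese balance and glycosylation. It had 2868, 2761 and 2648 normalised read counts at 0.5 nM and 2213, 2202 and 2179 at 5 nM. ARSK (chromosome 5, 95555101 to 95605102), a lysosomal sulfatase that degrades glycosaminoglycans, had 327.6, 285.3 and 273.7 at 0.5 nM and 172.4, 172.9 and 170.0 at 5 nM. Both genes showed a tight group at 5 nM, clear of all 0.5 nM libraries. The log2 difference was -0.33 ± 0.04 for TMEM165 (adjusted p = 9.4e-04) and -0.78 ± 0.09 for ARSK (adjusted p = 4.9e-04), the largest fall of the 12. Without the library they were -0.33 (adjusted p = 8.3e-04) and -0.80 (adjusted p = 6.4e-04). FSTL3, a secreted antagonist of activin, had 616.0, 719.8 and 622.6 at 0.5 nM and 499.8, 502.7 and 497.5 at 5 nM. Its log2 difference was -0.38 ± 0.06 (adjusted p = 0.015), and -0.31 without the library that held its highest value (adjusted p = 0.034).

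The clearest rise was that of SLC3A2 (chromosome 11, 62856004 to 62888880), the heavy chain (CD98) that carries several light chains of amino acid transporters to the surface. It had 2619, 2781 and 2341 normalised read counts at 0.5 nM and 4200, 4006 and 3465 at 5 nM. Every 5 nM library exceeded every 0.5 nM library, and the mean was 1.51-fold higher. The log2 difference was 0.59 ± 0.07 (adjusted p = 4.2e-04), or 0.65 without the library (adjusted p = 3.3e-05). Of all genes tested 0.0295% rose with all libraries and 0.0369% without. SLC3A2 was the only 1 of 16 measured amino acid transporter genes to pass. Its light chains SLC7A5 (0.05, adjusted p = 0.86) and SLC7A11 (0.02, adjusted p = 0.96) did not, nor without the library (0.02 and -0.04).

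TTC17, a tetratricopeptide repeat protein of the actin skeleton, had 1153, 1049 and 1251 normalised read counts at 0.5 nM and 1459, 1479 and 1503 at 5 nM, a log2 difference of 0.37 ± 0.06 (adjusted p = 0.0067) and of 0.30 without the library (adjusted p = 0.0092). ZNF251, a zinc finger gene, rested on few reads. It had 8.24, 10.0 and 7.82 normalised read counts at 0.5 nM and 41.9, 33.9 and 31.9 at 5 nM. Its libraries did not overlap, and the log2 difference was 1.93 ± 0.34 (adjusted p = 0.020) or 2.02 without the library (adjusted p = 0.027). LRIG2, a membrane protein with leucine-rich repeats, had 295.6, 256.3 and 262.9 at 0.5 nM and 361.1, 370.8 and 361.6 at 5 nM. Its log2 difference of 0.43 ± 0.08 passed with all libraries (adjusted p = 0.025) and missed without 0.5 nM replicate 2 (0.39, adjusted p = 0.082). Of its exon bases 12.5% also lie in another gene.

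**Figure D2:**
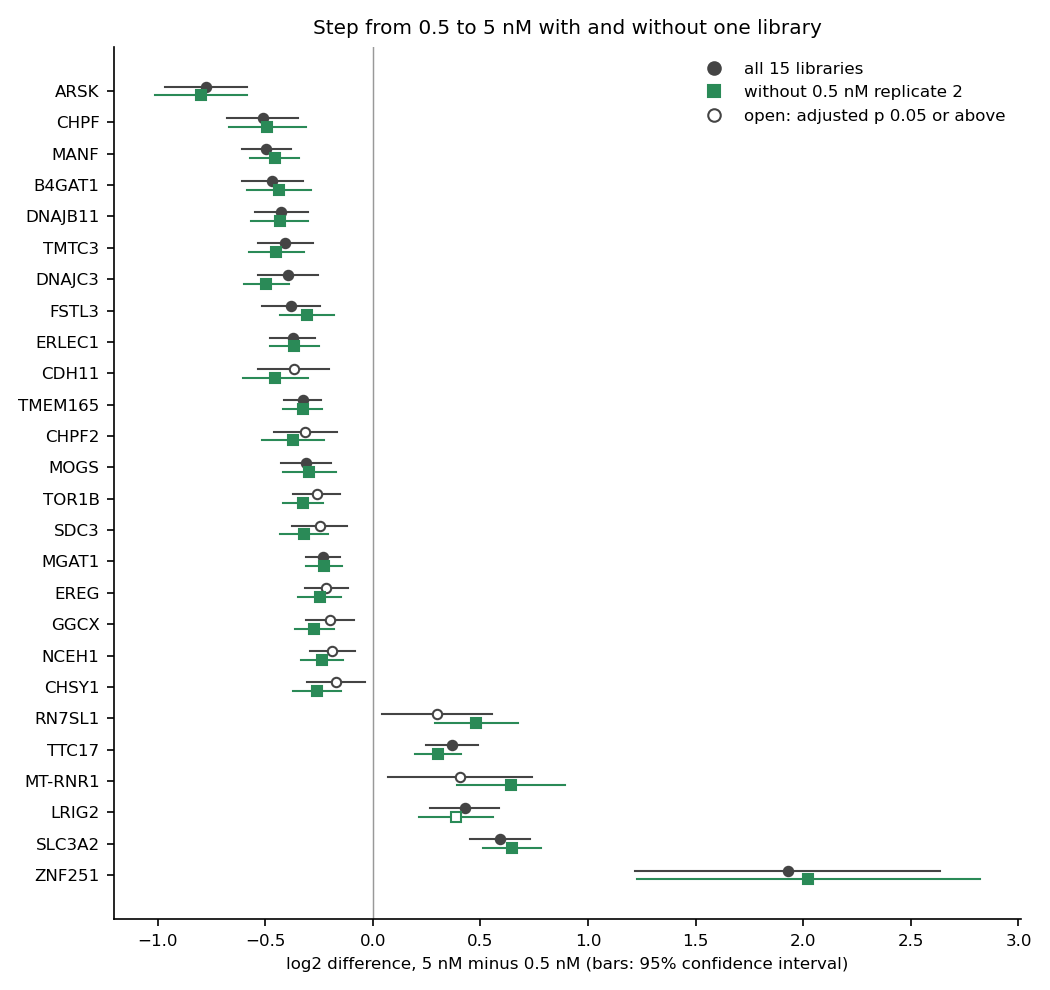
The log2 difference of 5 nM minus 0.5 nM for the 26 genes called in either fit, with its 95% confidence interval, from all 15 libraries (circles) and without 0.5 nM replicate 2 (squares). Filled symbols passed an adjusted p of 0.05. LRIG2 is filled with all libraries only, and 8 falls and the 2 rises RN7SL1 and MT-RNR1 are filled only without the library.

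Leaving out 0.5 nM replicate 2 added 8 falls and 2 rises. Among the falls CDH11, a cadherin of mesenchymal cells, had 1234, 1110 and 1426 normalised read counts at 0.5 nM and 932.9, 948.4 and 1027 at 5 nM. The log2 difference was -0.37 with all libraries (adjusted p = 0.13) and -0.45 ± 0.07 without the library (adjusted p = 0.0065). TOR1B, an ATPase of the ER lumen, had 1356, 1191 and 1360 at 0.5 nM and 1066, 1096 and 1089 at 5 nM, with -0.26 (adjusted p = 0.055) and -0.32 ± 0.04 (adjusted p = 9.4e-04).

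In both genes the lowest 0.5 nM value was that of replicate 2. GGCX, the vitamin K-dependent carboxylase of the ER, had -0.20 with all libraries (adjusted p = 0.29) and -0.27 without the library (adjusted p = 0.0065). Outside the rule for named genes, the cell-surface proteoglycan gene SDC3 (-0.32, adjusted p = 0.0092), the EGF receptor ligand gene EREG (-0.25, adjusted p = 0.034) and the cholesterol ester hydrolase gene NCEH1 (-0.24, adjusted p = 0.042) fell in the fit without the library, beside CHPF2 and CHSY1. With all libraries these 3 had -0.25, -0.22 and -0.19 (adjusted p from 0.15 to 0.29).

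The rises added without the library were 2 non-coding RNAs. MT-RNR1, the small ribosomal RNA of mitochondria, had 3499, 5616 and 3344 normalised read counts at 0.5 nM and 4809, 5931 and 5353 at 5 nM, and RN7SL1, the RNA of the signal recognition particle, had 1160, 1679 and 1139 against 1396, 1701 and 1737. In both, 0.5 nM replicate 2 lay among the 5 nM libraries. The log2 differences were 0.41 (adjusted p = 0.56) and 0.30 (adjusted p = 0.58) with it, and 0.64 (adjusted p = 0.025) and 0.48 (adjusted p = 0.033) without it. RN7SL1 has near-identical transcripts in 5 other annotated genes, so its reads are uncertain. The libraries were made from poly-A RNA, and how far that selection set the reads of these 2 RNAs was not tested.

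The mitochondrial share of reads differed between the same libraries. Mitochondrial genes took 1.15%, 1.88% and 0.889% of the recovered reads in 0.5 nM replicates 1, 2 and 3 and 1.50%, 1.96% and 2.06% at 5 nM. In the DMSO libraries the share was 0.942% to 1.58%, and at the higher doses 1.02% to 1.83%. All 13 mitochondrially encoded mRNAs were higher at 5 nM, with a median log2 difference of 0.63 with all libraries and 0.94 without the library, and 0 of 13 passed the adjusted threshold in either fit. At an unadjusted p under 0.05 stood 7 of them with all libraries and 13 without. Of all genes tested, 3.82% were higher at that p with all libraries and 2.91% without. The part of this share in the rises of MT-RNR1 and RN7SL1 was not tested.

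Transcript length marked the library that was left out. The median log2 difference of the step rose from -0.06 in the shortest to 0.06 in the longest of 5 equal bins of transcripts with all libraries, and ran between -0.02 and 0.01 over the bins without 0.5 nM replicate 2. Groups of short transcripts shifted with it. The 76 measured cytosolic ribosomal protein genes had a median of -0.11 with all libraries and -0.02 without, and the 69 nuclear genes of the respiratory chain -0.10 and -0.02, with 0 passing in either list and either fit. The 12 falls with all libraries had transcripts of 909 to 8445 bases with a median of 2684. The median was 3677 for the 20 falls in either fit and 3282 over all genes with an annotated length. The falls added without the library had transcripts of 2738 (TOR1B) to 7556 bases (GGCX). The added rises MT-RNR1 and RN7SL1 had 954 and 299 bases. The part of transcript length in these added calls was not tested.

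**Figure D3:**
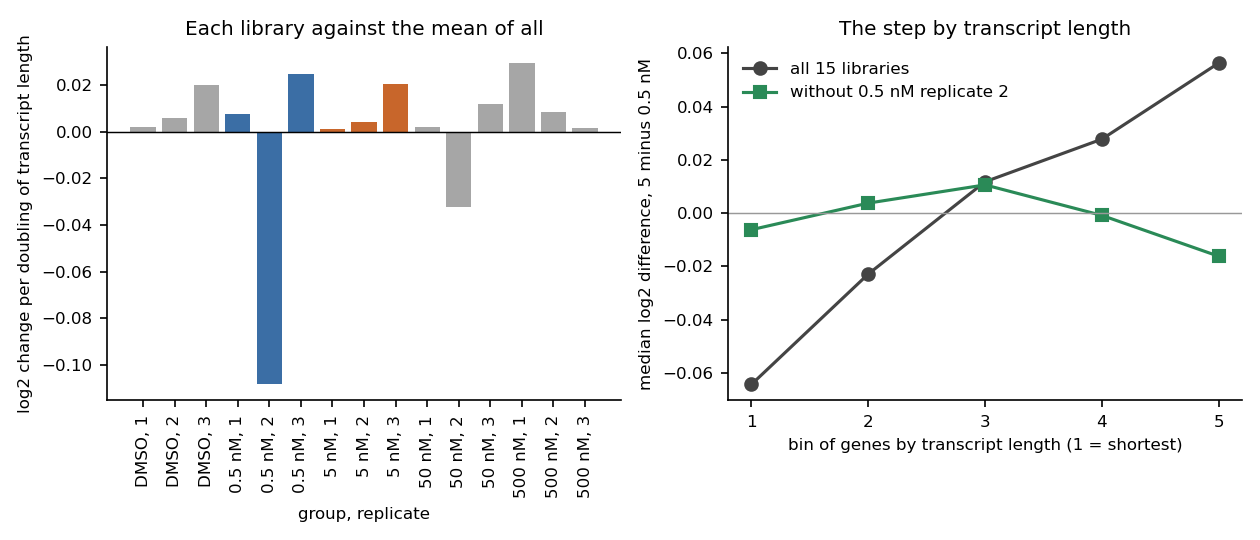
Left, the slope of log2(normalised read count + 1) of each library, relative to the mean of all libraries, on log2 transcript length (0.5 nM in blue, 5 nM in orange). Right, the median log2 difference of 5 nM minus 0.5 nM in each of 5 bins of genes by transcript length, with all libraries (circles) and without 0.5 nM replicate 2 (squares). The bar of that library reaches -0.11, and the line with all libraries climbs from -0.06 to 0.06.

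Other gene groups gave no call at this step. The 49 measured genes of the extracellular matrix had 0 calls and a median of 0.05, or 0.01 without the library, and the 15 integrins had 0 calls and medians of 0.04 and -0.04. The heat-shock genes had 0 calls of 25, with a median of 0.05 and 17 higher genes, or 0.07 and 20 without the library, and HSPA8, the constitutive HSP70, had the smallest p among them with all libraries (0.24, adjusted p = 0.19). The 18 mucin-type O-glycosylation genes had 0 calls and medians of -0.01 and -0.05, with 11 of 18 below 0 and, without the library, 18 of 18, against 6572 and 6843 of all 13561 genes. Galactosyltransferases had 0 calls of 14, with medians of -0.07 and -0.09.

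Lists of the ER translocon, ATF4 targets, aminoacyl-tRNA synthetases, coat proteins, golgins, V-type ATPase, lysosome, cholesterol and fatty acid synthesis, immediate-early genes, S phase and G2/M phase had 0 calls in both fits, with medians between -0.04 and 0.05. In cell-cell adhesion CDH11 was the only 1 of 26 genes called, in the fit without the library. In that fit 0.147% of all genes tested fell. At this depth and with 3 libraries a group, differences that miss the threshold are not shown to be absent.

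**Figure D4:**
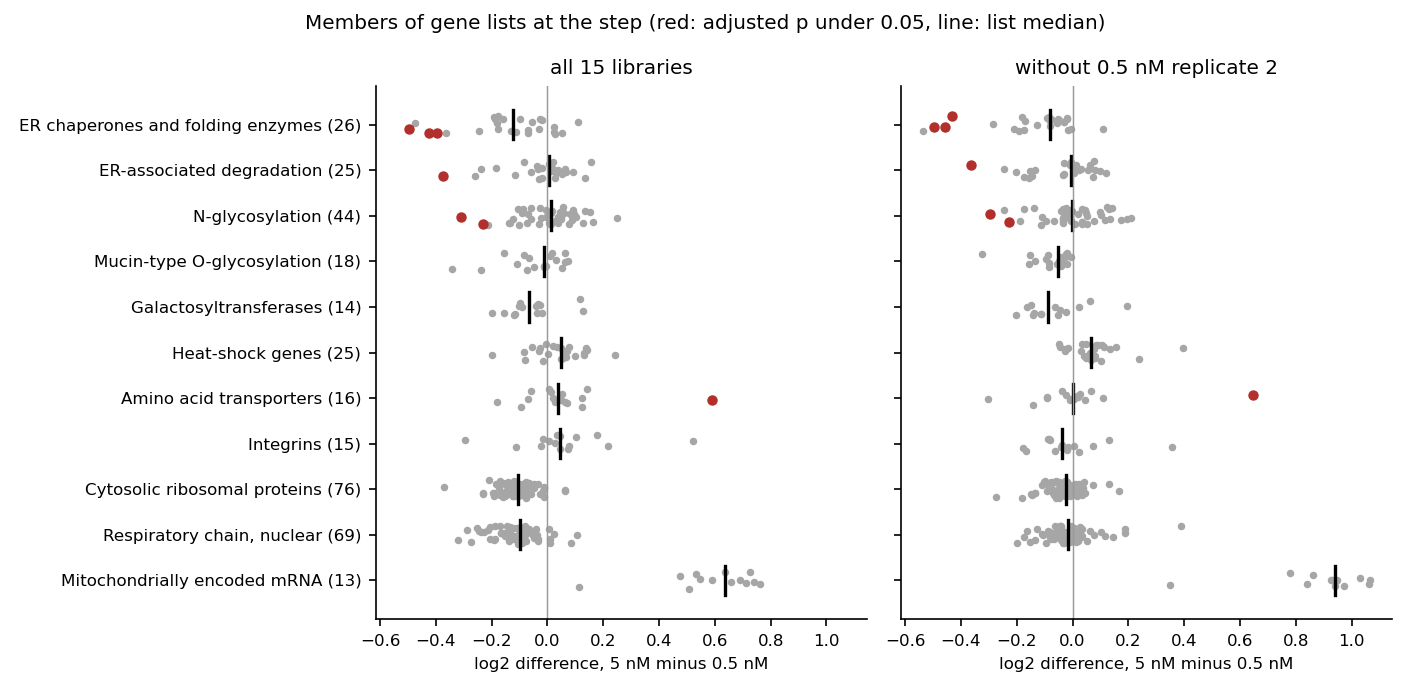
The log2 difference of 5 nM minus 0.5 nM for every measured member of 11 gene lists, with the number measured in brackets, from all libraries (left) and without 0.5 nM replicate 2 (right). Red points passed an adjusted p of 0.05 and black lines are list medians. The medians of ribosomal protein and respiratory chain genes lie at -0.11 and -0.10 on the left and at -0.02 on the right.

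Of 14 genes that the study names for its transcriptome, SLC3A2 alone passed at this step. The study took its fold changes against DMSO, in spheroids as well as in dishes, and reports no comparison between these doses. A gene that misses the threshold here therefore does not speak against what the study reports for it. The matrix and adhesion genes ITGA5 (0.03 ± 0.06), ITGB5 (-0.02 ± 0.06), COL5A1 (0.08 ± 0.07), ICAM1 (0.18 ± 0.10) and VWA1 (-0.22 ± 0.11) had adjusted p from 0.65 to 0.96. Without 0.5 nM replicate 2, ITGA5 and COL5A1 both stood at -0.02, ITGB5 at -0.04, ICAM1 at 0.11 and VWA1 at -0.20. HSP90AA1, the inducible HSP90, had 43137, 49013 and 43185 normalised read counts at 0.5 nM and 45113, 49892 and 45013 at 5 nM. Its groups overlapped, and its log2 difference was 0.05 with a 95% interval of -0.07 to 0.17. Without 0.5 nM replicate 2 they did not overlap, and the difference was 0.11 with an interval of 0.01 to 0.22 (adjusted p = 0.83). The V-type ATPase subunit gene ATP6V0A1 (0.13, adjusted p = 0.59), GPRC5A (0.16, adjusted p = 0.49) and EPHA2 (0.13, adjusted p = 0.36) were higher at 5 nM without passing, and ITGAV (-0.11), DNAJB9 (0.11), B4GALT1 (-0.10) and GALNT1 (-0.07) had adjusted p from 0.65 to 0.76. Without the library none of these 7 passed or changed sign.

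The called genes were then read at the doses above. The comparison of 500 nM with DMSO shares no library with the step, although all groups enter one estimate of the spread. Of the 20 genes that fell in either fit, 19 were lower at 500 nM than in DMSO and all 19 passed. Over all genes tested 49.4% were lower at 500 nM than in DMSO. Past the threshold 10.1% fell and 7.69% rose. EREG was the exception (0.04, adjusted p = 0.64). Of the 6 rises SLC3A2 (2.08, adjusted p = 1.8e-13) and TTC17 (0.63, adjusted p = 1.7e-07) passed there in the same direction.

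From 50 to 500 nM, again with no library of the step, 11 of the 20 falls were lower and 1 of them passed, namely CDH11 (-0.32, adjusted p = 0.040), while EREG rose (0.24, adjusted p = 0.012). Over all genes tested 48.8% were lower at 500 than at 50 nM, and 1.8% fell and 0.479% rose past the threshold. MANF, for example, had 926.2, 1006 and 933.9 normalised read counts at 50 nM and 875.5, 936.5 and 906.2 at 500 nM, which overlapped.

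**Figure D5:**
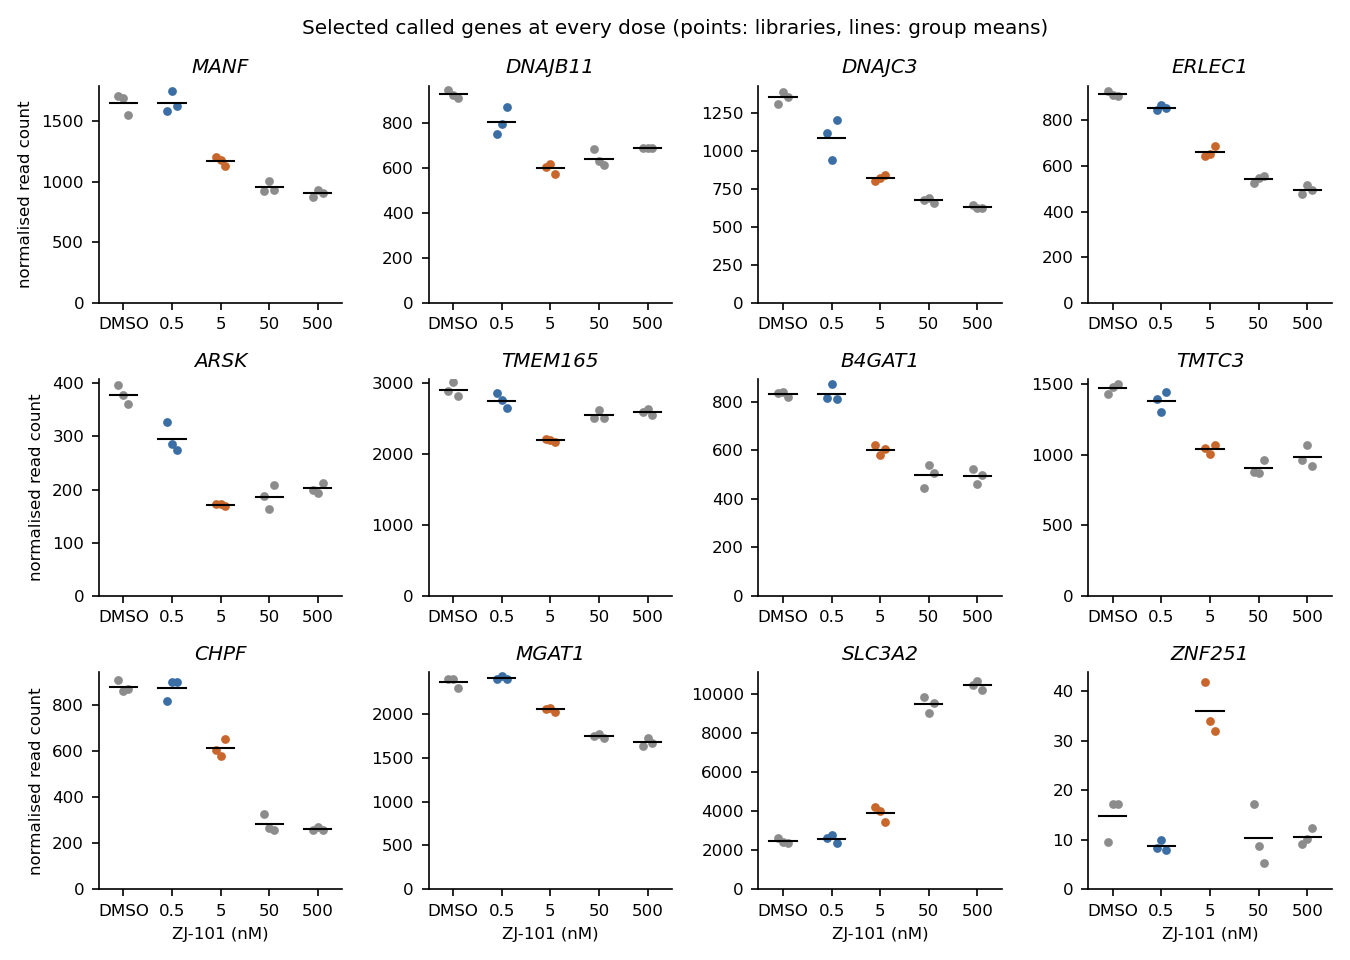
Normalised read counts of 12 called genes in every library (points) and as group means (lines) for DMSO and 0.5, 5, 50 and 500 nM ZJ-101, on axes that start at 0. Blue marks 0.5 nM and orange 5 nM. MANF, ERLEC1 and CHPF are lower again at 50 nM, TMEM165 is lowest at 5 nM, SLC3A2 rises most between 5 and 50 nM, and ZNF251 is high at 5 nM alone.

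The size of the step was also tested against the following step, from 5 to 50 nM, as a difference of differences in which the 5 nM libraries enter both. Of the 26 genes called in either fit 7 differed between the steps with all libraries, where 0.553% of all genes tested did, and 9 without 0.5 nM replicate 2, where 0.774% did. Since the 5 nM libraries are shared, a low or high value there moves both steps. The 26 genes were also picked by the lower step, which is part of the tested difference. A share above that of all genes follows in part from this choice, so no conclusion is drawn from the shares. From 5 to 50 nM 2.39% of all genes fell and 2.62% rose.

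SLC3A2 rose by 0.59 in the lower step and by 1.29 in the upper, to 9851, 9062 and 9539 normalised read counts at 50 nM, and the steps differed by -0.70 ± 0.12 (adjusted p = 0.0051). TMEM165 fell by 0.33 and then rose by 0.21 (adjusted p = 0.0035), to 2519, 2619 and 2512 at 50 nM, against 2893, 3018 and 2824 in DMSO. Its steps differed by -0.54 ± 0.07 (adjusted p = 8.0e-04). ARSK had 187.0, 163.7 and 208.5 at 50 nM, with an upper step of 0.11 (adjusted p = 0.60) and a difference of -0.89 ± 0.16 (adjusted p = 0.0092).

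DNAJB11 likewise had an upper step of 0.10 (adjusted p = 0.42) and a difference of -0.52 ± 0.10 (adjusted p = 0.019). ZNF251 returned to 17.2, 8.73 and 5.32 normalised read counts at 50 nM, and its steps differed by 3.75 ± 0.58 (adjusted p = 0.0032). RN7SL1 went from a lower step of 0.30 to an upper one of -0.87 (difference 1.17 ± 0.21, adjusted p = 0.010). CHPF2 fell by more in the upper step, -0.89 against -0.31 (difference 0.58 ± 0.12, adjusted p = 0.031). For CHPF the steps of -0.51 and -1.12 differed by 0.61 (adjusted p = 0.052), and by 0.63 without the library (adjusted p = 0.028). For MANF (-0.50 and -0.30, difference adjusted p = 0.49), ERLEC1 (-0.37 and -0.29, adjusted p = 0.79) and MGAT1 (-0.23 and -0.23, adjusted p = 1.0) no difference between the steps was shown. The 7 genes whose steps differed with all libraries also passed without the library, with differences of -0.64 for SLC3A2, -0.54 for TMEM165, -0.91 for ARSK, -0.53 for DNAJB11, 3.84 for ZNF251, 1.35 for RN7SL1 and 0.52 for CHPF2.

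Among genes not called at the lower step, HSP90AA1 had steps of 0.05 and 0.77 (difference -0.72, adjusted p = 0.0013) and ITGA5 steps of 0.03 and -0.76 (difference 0.79, adjusted p = 4.3e-04). For HSPA5 the steps of -0.19 and -0.29 did not differ beyond their error (0.09, adjusted p = 0.71).

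The levels in DMSO, given side by side since they share the 0.5 or 5 nM libraries with the step, show where the called genes stood with vehicle alone. MANF had 1711, 1694 and 1550 normalised read counts and B4GAT1 835.1, 839.7 and 818.7 in DMSO, both overlapping with the values at 0.5 nM. DNAJC3 had 1311, 1388 and 1356, CDH11 1709, 1597 and 1477 and ARSK 395.9, 378.4 and 361.2, all above their 3 values at 0.5 nM. ERLEC1, DNAJB11 and SDC3 also had all DMSO values above those at 0.5 nM, and no other gene called in either fit did. How many of all genes tested lay apart in this way was not counted.

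The calls rested on single libraries to different degrees. MANF, SLC3A2, ARSK, TMEM165, ERLEC1, DNAJB11 and B4GAT1 passed whichever 1 of the 15 libraries was left out, with adjusted p of 0.044 or less. Fewer genes passed without a 5 nM library, namely 9, 7 and 9 without replicates 1, 2 and 3. TMTC3 was lost without 5 nM replicate 2 (adjusted p = 0.057), CHPF without 5 nM replicate 1 or 2 (up to 0.068) and TTC17 without 5 nM replicate 2 or 3 (up to 0.062). MGAT1 (up to 0.079) and FSTL3 (up to 0.10) were lost without any 1 of the 5 nM libraries. DNAJC3 (up to 0.13) and ZNF251 (up to 0.16) were lost without these and without 0.5 nM replicate 1 or 3, MOGS without these and without 0.5 nM replicate 3 (up to 0.16), and LRIG2 without these and without 0.5 nM replicate 2 or 3 (up to 0.19). With the 6 libraries of these doses fitted alone, 4 genes passed, ARSK, MANF and ZNF251 of the 16 and, named after its value was seen, BAG6.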

How the data were processed

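RNA of 15 MDA-MB-231 libraries was measured, 3 for each of DMSO and 0.5, 5, 50 and 500 nM ZJ-101 at 6 h, with groups taken from the sample labels. The deposited signal values are normalized counts. To make them the authors mapped paired-end reads of poly-A RNA with HISAT2 (hg38), used htseq-count for the genes, and scaled every library by the size factor that DESeq2 gave it. Tool versions, strand and the GENCODE release are not given in the sources used here, so reads of genes that overlap cannot be told apart by strand. The study's methods and the labels give different DMEM formulations, so no medium is named. 1 line of the table holds doses and no gene and was left out.

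Every value divided by the smallest step of its library gave a whole read within 0.001 (100% of values). The recovered reads ranged from 12415519 to 15284762 per library, and size factors from 0.916 to 1.13. The chi-square of replicate pairs over its degrees of freedom was 1.96 to 15.1, so no pair was treated as a duplicate.

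Genes with a mean of at least 10 were tested with limma 3.58.1 (R 4.3.3) on log2(value + 1), with a trend of the variance, the 5 groups in 1 fit and Benjamini-Hochberg adjustment at 0.05. Log2 differences are on this scale, which understates changes of low genes. A second fit left out 0.5 nM replicate 2. The script was tested on simulated data. Alternatives were other pseudocounts, filters and scalings, the replicate block, edgeR 4.0.16 and DESeq2 1.42.0 on recovered reads, library weights, other sets of libraries, each library left out, other thresholds and removal of trends on transcript length and GC content.

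Named were every gene that passed with all libraries, up to 10 rises and 10 falls without 0.5 nM replicate 2, up to 3 rises and 3 falls per list, the 14 genes the study names for its transcriptome, and HSPA5 and DNAJC3. The doses compared, the gene lists and these rules were chosen with earlier results of these data known. The lists of O-mannosylation and of chondroitin sulfate enzymes were written after the values were seen, as was a list of sulfatases. In the latter ARSK was the only 1 of 15 genes called, where 0.0885% of all genes fell with all libraries and 0.147% without. Positions, lengths and exon overlaps come from GENCODE release 44, which held 93.2% of the tested genes. Near-identical transcripts were sought with minimap2 2.31-r1302 (50% of the length at 95% identity). Promoters come from RefSeq.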

Additional observations from a re-analysis of the deposited data

How the results depend on the processing

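Of the 16 genes called with all libraries, 0 reversed under any alternative, and of 525 values under these alternatives 467 kept their side of the threshold and 58 lost it. The count of genes was 16 or 17 under pseudocounts of 0.5 and 5, no filter, a mean of at least 50, TMM scaling (17), equal totals and edgeR (17), and 14 with the 12 treated libraries. It was 29 with DESeq2, 52 with library weights, in which 0.5 nM replicate 2 had the lowest weight (0.210), 28 with the trends on transcript length and GC content removed, 4 with the 6 libraries of these doses, and 1 with an absolute log2 difference of at least 1. Leaving out 1 library gave between 7 and 25 genes, the highest without 0.5 nM replicate 2. From the 25 genes of the fit without that library, 5 libraries alone gave 44, and leaving out a further library of these doses gave between 7 and 17, with 7 without 0.5 nM replicate 3 and 11 without 5 nM replicate 2. The cause of these shifts was not tested.

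Replicate numbers are not stated to mark a shared culture or day. Same-numbered libraries correlated in their deviations by -0.0855 to 0.0961. For 7 of 15 libraries the mean correlation with libraries of other groups was highest for those of their own number. With the replicate block 17 genes passed, and 18 without 0.5 nM replicate 2.

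Among 24 named genes not called with all libraries, 81 of 792 values crossed the threshold and 15 changed sign, all close to 0. Without 0.5 nM replicate 2, ITGA5 had -0.021, also with the 5 libraries alone (-0.021), -0.023 with edgeR, -0.022 with DESeq2, -0.023 with the replicate block and -0.045 with the trends removed, and it had -0.011 with the trends removed from all libraries. Over all single omissions it ran from -0.021 to 0.101. Without 0.5 nM replicate 2, COL5A1 had -0.0203, also with the 5 libraries alone (-0.0203), -0.021 with edgeR, -0.0202 with DESeq2, -0.014 with the replicate block and -0.0225 with the trends removed, and over all single omissions it ran from -0.0203 to 0.166. ITGB5 ran from -0.0581 to 0.0265 over the single omissions.

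With 3 libraries a group the median standard error of a log2 difference was 0.0855.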
